A study of Mus musculus with 6 samples.

Results

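The neurotrophin system of cultured mouse retinal ganglion cells (RGCs) was followed through 8 genes picked by name: the ligand genes Bdnf and Ntf3, the Trk receptor genes Ntrk2 and Ntrk3, the p75 receptor gene Ngfr and its relative Nradd, the sorting receptor gene Sort1, and the scaffold gene Kidins220. These are 8 of the 43346 Ensembl genes in the tables, and all 8 were among the 15747 genes with enough counts to be tested. RNA-seq was done on RGCs purified by immunopanning, in which an antibody to the surface protein Thy1 (CD90) holds RGCs on a dish, and cultured on laminin. RNA was taken 72 h after plating from 3 groups of 2 libraries, with between 27521982 and 37061718 counts per library.

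All groups received an adeno-associated virus (AAV) 4 h after plating and differed only in what it carried. The control group received a control AAV, and the control plasmid that the study describes carried EGFP, which its Sox11 plasmids also carried behind Sox11. The group labelled SOX11_WT, called Sox11 here, received wild-type Sox11, a transcription factor of the SOX family. The group labelled SOX11_MUTANT, called Sox11 K91A here, received Sox11 with alanine in place of lysine 91, the residue to which the small protein SUMO is joined. The medium in which the study grew its RGCs held BDNF at 50 ng/ml, CNTF at 10 ng/ml and forskolin, so a neurotrophin was supplied to the cells of every group. The study's mice were C57BL/6, of both sexes. The age of the cells is given as embryonic day 18 for the RNA-seq cultures, as postnatal day 2 where the purification of RGCs is described, and as postnatal day 0 in the names of the deposited tables, and which of these holds was not settled. Whether the 2 libraries of a group came from separate cultures is also not given, so the p-values below measure only the spread between these libraries.

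Neurotrophins are secreted as precursors that are cut to the mature form, and they act through receptors of 2 kinds. Mature BDNF activates TrkB (encoded by Ntrk2) and mature neurotrophin-3 activates TrkC (Ntrk3), and Trk kinases support survival and growth. The receptor p75 (Ngfr) binds every neurotrophin, binds the precursors best together with sortilin (Sort1), and can signal toward death or toward inhibition of growth as well as assist Trk receptors. RGCs carry TrkB, and BDNF is a classical survival factor for them after injury of the optic nerve.

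Upstream windows of 3 genes are shown, those of the gene that rose most (Ngfr), of the ligand gene that fell (Bdnf) and of the gene of that ligand's receptor, which did not pass the test in any comparison (Ntrk2). They are RefSeq sequences of GRCm38.p6, written 5′ to 3′ on the strand of the gene, ending at the annotated start, or for Ngfr where the GENCODE exon begins. Capitals mark matches, on either strand, to 2 short motifs. These are the SOX core ACAANG and the CRE core CGTCA, to which proteins of the CREB family bind, and they do not overlap in these windows.
Ngfr, chr11:95587736-95587948, minus strand: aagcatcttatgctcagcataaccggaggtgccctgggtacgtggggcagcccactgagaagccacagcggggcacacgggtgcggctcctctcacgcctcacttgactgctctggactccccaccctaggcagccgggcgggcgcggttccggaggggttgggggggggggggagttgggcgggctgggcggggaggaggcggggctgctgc
Bdnf, the third of its 7 start sites, chr2:109692186-109692435, plus strand: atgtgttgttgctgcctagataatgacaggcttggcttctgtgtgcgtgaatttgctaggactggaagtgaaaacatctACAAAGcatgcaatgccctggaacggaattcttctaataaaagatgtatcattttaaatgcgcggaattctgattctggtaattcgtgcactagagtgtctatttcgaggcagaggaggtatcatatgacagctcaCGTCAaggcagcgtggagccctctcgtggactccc
Ntrk2, chr13:58806319-58806568, plus strand: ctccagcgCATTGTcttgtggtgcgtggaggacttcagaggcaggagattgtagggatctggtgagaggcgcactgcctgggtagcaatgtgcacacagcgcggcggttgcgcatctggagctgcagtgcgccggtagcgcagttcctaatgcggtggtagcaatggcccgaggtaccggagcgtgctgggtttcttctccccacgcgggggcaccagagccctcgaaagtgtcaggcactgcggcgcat
Across the 250 bases before each start, RefSeq gave 13 windows for 6 of the 8 genes. The SOX core was found in 4 of the 13, against 36.3% of 32851 windows of the same length in the genome. The 4 belonged to Nradd, Kidins220, Ntrk2 and the third start of Bdnf, and the Ngfr window, with a GC content of 70.4%, held no match. The whole Kidins220 window, with its match, lay in annotated exons. Of the 7 Bdnf windows, only that of the third start, shown above, held a match to either motif. The CRE core was found in 1 of the 13, again at the third start of Bdnf, against 17.8% in the genome. A match in such a window is a description of the letters and does not show a binding site.

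The cargo of the virus was checked first. Sox11 had 234 and 332 CPM (counts relative to the scaled size of the library) in the control libraries, 9178 and 14591 CPM with Sox11, and 11971 and 7026 CPM with Sox11 K91A. Every library that received a Sox11 virus lay far above both controls, and the log2 fold changes of 5.38 (SE 0.33, adjusted p = 0.0075) and 5.04 (SE 0.33, adjusted p = 0.0092) passed the test. Reads of the virus and of the cell's own Sox11 gene cannot be told apart in these counts, and neither can wild type and K91A. Markers of RGCs were abundant in every library, with a summed level of 8211 to 9050 TPM (a level relative to transcript length, scaled to the same total in every library) in the controls, 4126 to 6621 TPM with Sox11 and 5516 to 6732 TPM with Sox11 K91A, over 10 genes. Of these, Slc17a6, Nefl and Thy1 fell with Sox11 and Slc17a6 fell with Sox11 K91A. Thy1, the gene of the protein used for purification, had 725 and 689 CPM in the controls, 259 and 46.3 CPM with Sox11, and 154 and 312 CPM with Sox11 K91A. In bulk RNA, fewer cells of a type and less RNA per cell cannot be told apart.

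Levels per transcript length placed the 8 genes in an order that was partly shared by the libraries. Kidins220, which encodes a membrane scaffold that links Trk receptors and p75 to downstream kinases, was highest in all 6 libraries, from 109 to 239 TPM. Ntf3, the gene of neurotrophin-3, was lowest in all 6, from 0.300 to 1.94 TPM. In the control libraries Kidins220 was followed by Bdnf at 148 and 90.2 TPM, Sort1 at 76.8 and 44.5 TPM and Ntrk2 at 44.3 and 24.3 TPM. In the 4 libraries with a Sox11 virus it was followed by Sort1, between 107 and 161 TPM, and then by Ngfr, between 63.2 and 128 TPM. Ngfr thus stood below Ntrk2 in both control libraries and above it in the other 4. These positions compare genes within a library and were not tested.

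**Figure D1:**
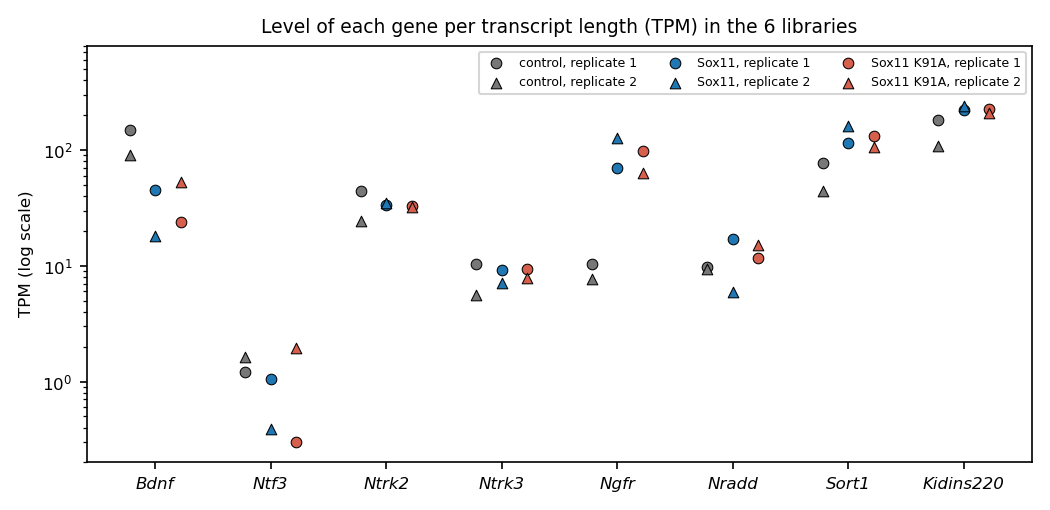
TPM on a log scale of the 8 genes in each of the 6 libraries, with groups in colour and the replicates as circles (1) and triangles (2). Kidins220 is at the top and Ntf3 at the bottom in every library, and Ngfr moves from 10.4 and 7.71 TPM in the controls to between 63.2 and 128 TPM with either virus.

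Sox11 against control asked how wild-type Sox11 changed the transcriptome of RGCs. Of the 8 genes, Ngfr and Sort1 rose, Bdnf fell, and 5 did not pass the test, which was an FDR under 0.05 over all genes tested and a fold change above 1.2. Among all 15747 genes tested, 20.1% passed, with 9.96% higher and 10.2% lower, and a count of 3 in 8 is not read as more than that share. The median log2 fold change of the 8 genes was -0.01, beside 0.01 for all genes.

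The ligand Bdnf had 296 and 197 CPM in the control libraries, 87.2 and 34.2 CPM with Sox11, and 46.7 and 105 CPM with Sox11 K91A. All 4 libraries with a Sox11 virus lay below both controls. With Sox11, Bdnf fell 4.46-fold (log2 fold change -2.16, SE 0.52, 95% interval -3.40 to -0.91, adjusted p = 0.033). With Sox11 K91A, its log2 fold change was -1.79 (SE 0.52, 95% interval -3.03 to -0.56, adjusted p = 0.071) and did not pass. The call with Sox11 was lost without Sox11 replicate 2 (log2 fold change -1.47), control replicate 1 (-1.87) or control replicate 2 (-2.46). Each of these fits left 1 library in a group, so a call lost in them cannot be read as particular to Bdnf. The call was also lost with sample quality weights, which kept all 6 libraries. In all, 7 of 20 alternative fits lost it.

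Bdnf has many promoters, each with its own 5′ exon joined to a shared coding exon, so its messages differ in length. The mean length of Bdnf transcripts, which RSEM weights by the estimated share of each of 11 annotated transcripts, was 4153 and 4139 bases in the controls and between 4039 and 4088 bases in the libraries with a Sox11 virus. The groups did not overlap, which was also so, in either direction, for 15.2% of the 10211 genes tested whose mean length varied. The transcripts that gained or lost share cannot be read from a mean length. On the opposite strand, exons of Gm45346 cover 14.4% of the exonic bases of Bdnf, and whether counting used strand is not given in the sources used here.

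Ntf3 was close to the limit of detection, with 21 and 40 counts in the controls, 17 and 7 with Sox11, and 6 and 34 with Sox11 K91A. Its log2 fold changes of -1.31 (SE 0.90, 95% interval -3.46 to 0.83, adjusted p = 0.33) with Sox11 and -0.95 (SE 0.86, 95% interval -2.98 to 1.08, adjusted p = 0.51) with Sox11 K91A did not pass. At this depth changes of several fold in either group could not be resolved.

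The receptor genes Ntrk2 and Ntrk3 showed no difference that could be detected between groups. Ntrk2 had 186 and 112 CPM in the controls, 139 and 145 CPM with Sox11, and 140 and 139 CPM with Sox11 K91A. All 4 libraries with a Sox11 virus lay between the controls. The log2 fold change was -0.03 (95% interval -0.58 to 0.52, adjusted p = 0.94) with Sox11 and -0.06 (95% interval -0.61 to 0.49, adjusted p = 0.89) with Sox11 K91A. Ntrk3 had 13.7 and 7.97 CPM in the controls, 11.7 and 9.17 CPM with Sox11, and 11.7 and 10.6 CPM with Sox11 K91A. Here too the controls enclosed the other libraries, and the intervals of the log2 fold change were -0.69 to 0.72 (adjusted p = 0.98) with Sox11 and -0.56 to 0.84 (adjusted p = 0.80) with Sox11 K91A. Without control replicate 2 and Sox11 replicate 2, Ntrk2 passed with Sox11 K91A (log2 fold change -0.41). That fit left 1 library in the control group, so a call gained in it cannot be read as particular to Ntrk2. Counts per gene do not separate the full-length receptors from the truncated forms without a kinase that both genes also make.

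Ngfr, the gene of p75, had the largest change of the 8. It had 17.1 and 13.9 CPM in the controls, 113 and 205 CPM with Sox11, and 163 and 105 CPM with Sox11 K91A. The 4 libraries with a Sox11 virus were all above 100 CPM and did not overlap with the controls. Ngfr rose 9.98-fold with Sox11 (log2 fold change 3.32, SE 0.36, 95% interval 2.46 to 4.18, adjusted p = 0.011), the 120th largest rise among the genes tested. With Sox11 K91A it rose 8.57-fold (log2 fold change 3.10, SE 0.36, 95% interval 2.24 to 3.96, adjusted p = 0.014). The call was lost without Sox11 replicate 2 (log2 fold change 2.90) in the first comparison. In the second it was lost without control replicate 2 (2.94) or Sox11 K91A replicate 1 (2.79). These fits left 1 library in a group, so a call lost in them cannot be read as particular to Ngfr.

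Cells other than RGCs can express p75, and their markers were therefore read beside Ngfr. In the lineage of Schwann cells and oligodendrocytes the summed level of 6 markers was 17.4 to 25.3 TPM in the controls, 16.2 to 19.5 TPM with Sox11 and 18.4 to 20.0 TPM with Sox11 K91A, and Sox10 and Olig2 were at or under 3 counts in every library, whereas Pdgfra rose with Sox11 (log2 fold change 2.79, adjusted p = 0.0493). For Müller glia the sum over 6 markers was 288 to 397 TPM, 373 to 425 TPM and 405 to 418 TPM in the same order, and Glul, which encodes glutamine synthetase, rose with both viruses. Astrocyte markers summed to 9.92 to 10.6 TPM in the controls, 2.25 to 3.77 TPM with Sox11 and 4.32 to 6.03 TPM with Sox11 K91A, with Gfap at or under 3 counts in every library, and Aldoc fell with both viruses and S100b with Sox11. Fibroblast markers summed to 4.62 to 5.95 TPM, 2.98 to 11.3 TPM and 3.41 to 4.20 TPM, and endothelial and pericyte markers to 1.79 to 2.18 TPM, 3.83 to 4.28 TPM and 3.62 to 4.93 TPM, with a rise of Pecam1 with Sox11 K91A (log2 fold change 2.03, adjusted p = 0.0468). Amacrine markers summed to 88.7 to 221 TPM, 146 to 221 TPM and 196 to 205 TPM, and Slc6a9 fell with both viruses. The part of any of these cells in the rise of Ngfr was not tested.

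Nradd, which encodes a death-domain protein of the membrane related to p75, had 4.72 and 4.90 CPM in the controls, 8.04 and 2.71 CPM with Sox11, and 5.59 and 7.20 CPM with Sox11 K91A. The controls lay between the Sox11 libraries and just below those of Sox11 K91A. Its log2 fold changes of -0.09 (SE 0.49, adjusted p = 0.91) and 0.39 (SE 0.46, adjusted p = 0.62) did not pass.

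Sort1, the gene of sortilin, had 233 and 154 CPM in the controls, 342 and 450 CPM with Sox11, and 394 and 324 CPM with Sox11 K91A. All 4 libraries with a Sox11 virus were above both controls. Sort1 rose 2.06-fold with Sox11 (log2 fold change 1.05, SE 0.24, 95% interval 0.47 to 1.62, adjusted p = 0.03), and with Sox11 K91A its log2 fold change was 0.91 (SE 0.24, 95% interval 0.34 to 1.48, adjusted p = 0.057). Without Sox11 replicate 2 the first value was 0.86, and without control replicate 2 it was 0.75. The call was lost in both fits, which left 1 library in a group, so the loss cannot be read as particular to Sort1. Sample quality weights, which kept all 6 libraries, also lost the call. In all, 5 of 20 alternative fits lost it. The mean length of Sort1 transcripts was also lower with either virus, at 5871 to 6158 bases against 6180 and 6440 bases, over 3 annotated transcripts, and the nearest values differed by less than the 2 controls did. Exons of Gm12523 on the opposite strand cover 4.47% of the exonic bases of Sort1, and Gm12523 itself held 7.83 to 21.93 counts per library.

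Kidins220 had 659 and 437 CPM in the controls, 802 and 851 CPM with Sox11, and 838 and 766 CPM with Sox11 K91A. Both groups lay above the controls without overlap, yet the log2 fold changes of 0.62 (SE 0.21, 95% interval 0.12 to 1.12, adjusted p = 0.078) and 0.57 (SE 0.21, 95% interval 0.08 to 1.07, adjusted p = 0.12) did not pass the test. Without control replicate 1 both passed, at 0.92 and 0.88. That fit left 1 library in the control group, so a call gained in it cannot be read as particular to Kidins220. Exons of Gm36236 on the opposite strand cover 1.59% of the exonic bases of Kidins220.

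**Figure D2:**
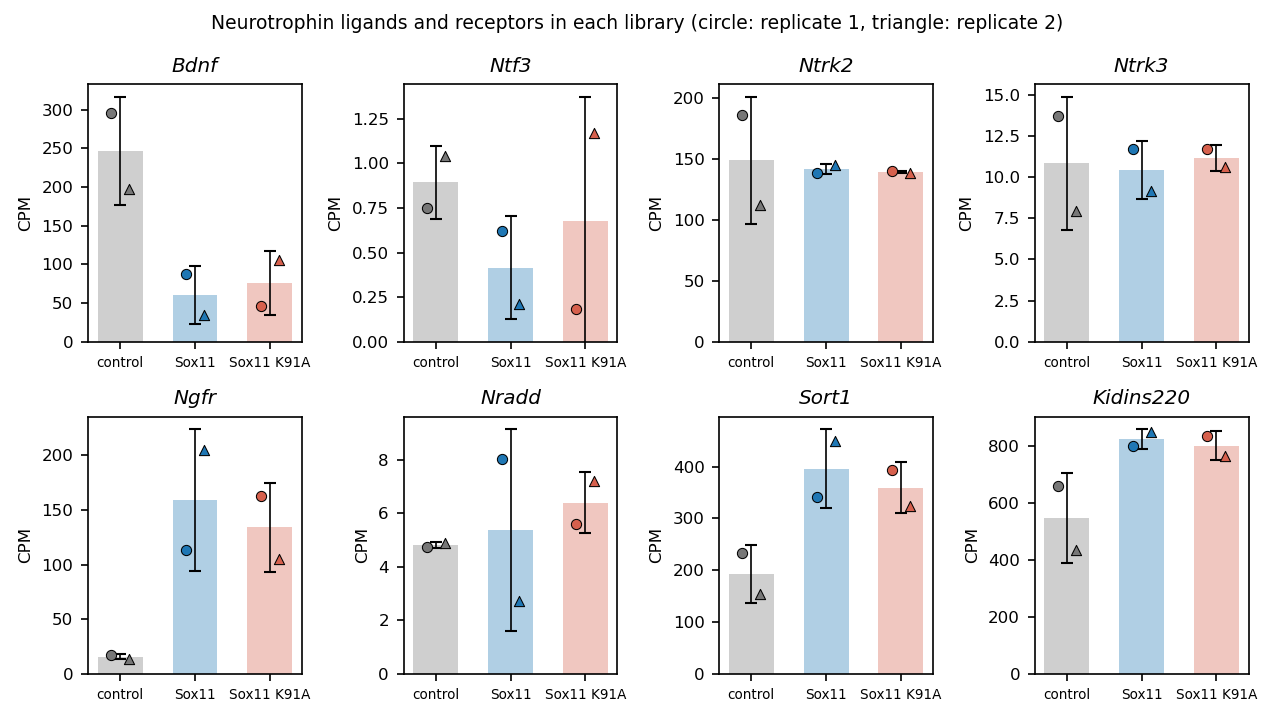
CPM of the 8 genes, with 1 panel per gene; bars are the mean of 2 libraries, error bars the SD, circles replicate 1 and triangles replicate 2. Ngfr, Sort1 and Kidins220 are higher and Bdnf is lower in all 4 libraries with a Sox11 virus than in both controls, whereas Ntrk2 and Ntrk3 lie between the controls.

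Sox11 K91A against control used the same 2 control libraries, so the 2 comparisons are not independent. Ngfr rose and 7 genes did not pass. Of all genes tested, 10.6% passed, with 5.81% of all genes tested higher and 4.81% lower. The libraries of Sox11 K91A did not overlap with the controls for 5 of the 8 genes, higher for Ngfr, Sort1, Kidins220 and Nradd and lower for Bdnf, beside 61.9% of all genes tested. With Sox11 this also held for 5 of the 8, higher for Ngfr, Sort1 and Kidins220 and lower for Bdnf and Ntf3, beside 61.5%. With 2 libraries a group, a lack of overlap is therefore the common case and does not set these genes apart.

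Sox11 K91A against Sox11 asked directly whether the lysine that is joined to SUMO mattered for these genes. None of the 8 passed limma-voom, none was under an unadjusted p of 0.05, and none had groups that did not overlap, which was the case for 26.6% of all genes tested. Among all genes 0% passed, 108 were under an unadjusted p of 0.05, and DESeq2 called 2. The log2 difference was -0.22 (95% interval -0.97 to 0.53) for Ngfr, 0.36 (95% interval -0.86 to 1.59) for Bdnf, -0.14 (95% interval -0.71 to 0.44) for Sort1 and -0.04 (95% interval -0.55 to 0.46) for Kidins220, each with an adjusted p of 1.00. These intervals do not show that wild-type Sox11 and K91A act alike, and they bound a difference most loosely for Ntf3 (-1.99 to 2.72).

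**Figure D3:**
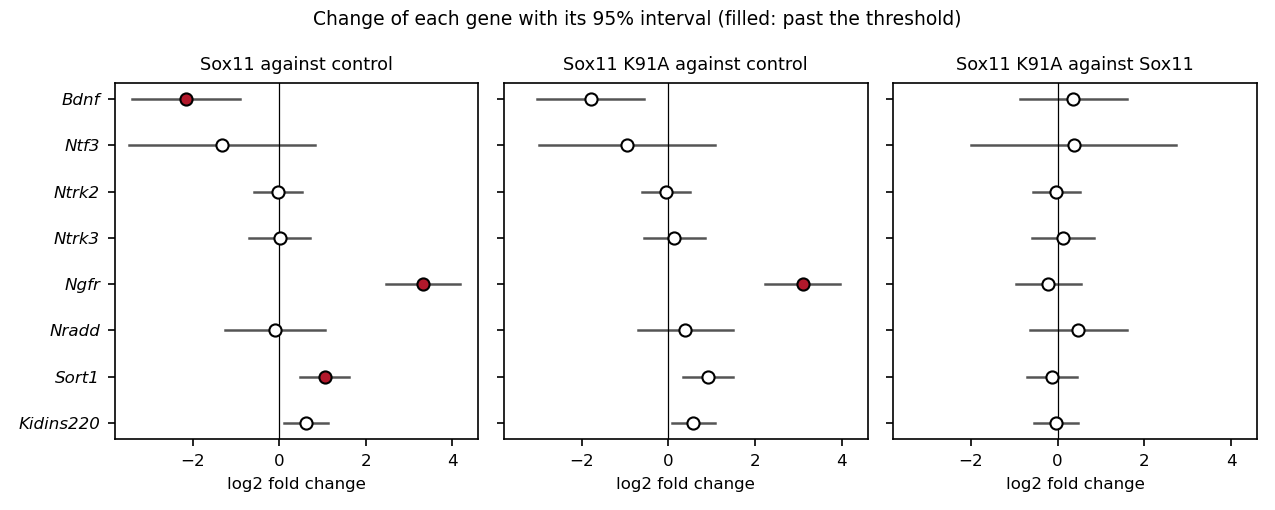
Log2 fold change of each gene in the 3 comparisons, with 95% intervals as lines and filled points where the test was passed. Ngfr is filled in both comparisons with control, Sort1 and Bdnf are filled with Sox11, and every interval of Sox11 K91A against Sox11 includes 0.

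For Sox11, Ngfr and Bdnf, the 2 libraries that received the same Sox11 virus lay further apart than the means of the 2 viruses. Ordered by Sox11 CPM, the 4 libraries ran from Sox11 replicate 2 at 14591 through Sox11 K91A replicate 1 at 11971 and Sox11 replicate 1 at 9178 to Sox11 K91A replicate 2 at 7026. Ngfr followed the same order, with 205, 163, 113 and 105 CPM. Bdnf followed the opposite order, with 34.2, 46.7, 87.2 and 105 CPM. Sort1 and Kidins220 also had the order of Sox11, as did Ntrk2, although its 4 values differed by only a few CPM. Of all genes tested other than Sox11, 12.4% had the same order and 13.9% the opposite one, and Thy1 had the opposite one. This is a description of 4 libraries, and what the order reflects was not tested.

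**Figure D4:**
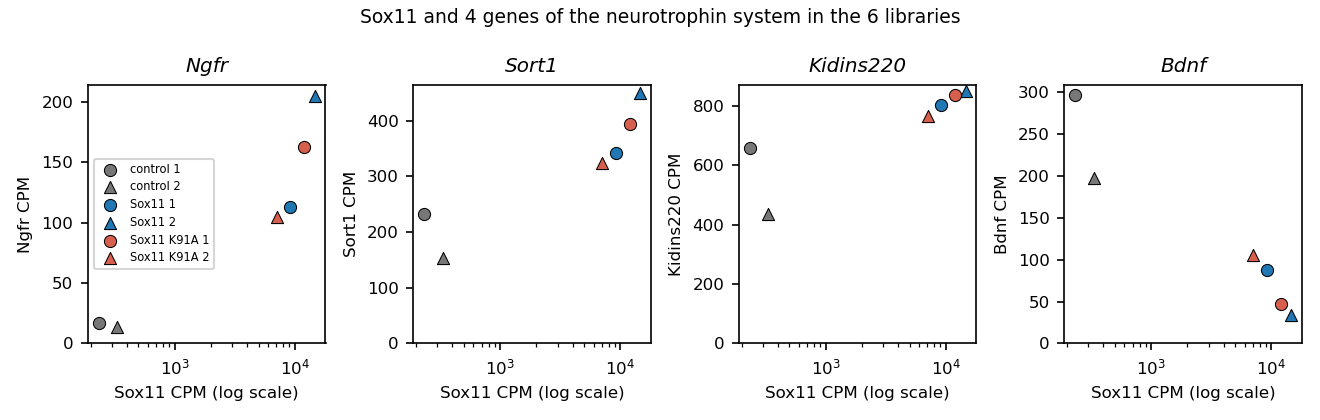
CPM of Ngfr, Sort1, Kidins220 and Bdnf against Sox11 CPM (log scale) in the 6 libraries, with groups in colour and replicates as circles (1) and triangles (2). Among the 4 libraries at 7026 to 14591 Sox11 CPM, Ngfr runs upward from 105 to 205 CPM and Bdnf runs downward from 105 to 34.2 CPM.

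The balance of receptors was read as a ratio of TPM within each library. The level of Ngfr relative to Ntrk2 was 0.235 and 0.317 in the controls, 2.09 and 3.63 with Sox11, and 2.98 and 1.95 with Sox11 K91A. Relative to its partner Sort1, Ngfr stood at 0.136 and 0.173 in the controls, 0.611 and 0.797 with Sox11, and 0.739 and 0.591 with Sox11 K91A. For Bdnf relative to Ntrk2, the ratio was 3.34 and 3.71 in the controls, 1.34 and 0.511 with Sox11, and 0.723 and 1.62 with Sox11 K91A. The libraries with a Sox11 virus did not overlap with the controls in any of these ratios, which restate the values of the single genes. The ratio of Ntrk2 to Ntrk3 ranged from 3.49 to 5.00 over the 6 libraries, and both controls, at 4.30 and 4.36, lay inside the range of the others.

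The genes with the most similar course to each member that passed a test were sought among 10973 genes. The measure was the root mean square difference of centred log2 CPM over the 6 libraries. The fold changes of genes found in this way resemble that of the member by construction and are no separate result. Nearest to Ngfr were Rnf182 (difference 0.13), Itgb8 (0.14) and Nhsl1 (0.14), with log2 fold changes with Sox11 of 3.28, 3.58 and 3.08. Nearest to Bdnf were Gpr146, Stac2 and Crhbp, each at 0.13, with log2 fold changes of -2.18, -2.44 and -2.33. Nearest to Sort1 were Prdm2 and Dip2b, each at 0.04, and Bach2 at 0.05.

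Around the 8 genes, 126 further genes of the pathway were read in 6 lists, and 123 of them were tested. With Sox11, 13 rose and 15 fell, or 22.8%, beside 20.1% of all genes, and with Sox11 K91A 6 rose and 8 fell, or 11.4%, beside 10.6%. Both shares are near those of all genes. Between Sox11 K91A and Sox11 none passed. The 5 lists with more than 2 tested genes are described by their counts and by the genes that passed. Among all genes tested, 9.96% were higher and 10.2% lower with Sox11, and 5.81% higher and 4.81% lower with Sox11 K91A. No count of a single list is read as more than these shares.

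Of 15 tested genes for processing and sorting of ligands, none rose and 2 fell in either comparison with control. Pcsk1, which encodes a protease that cuts precursors in the regulated secretory route, had 132 and 79.4 CPM in the controls, 37.1 and 21.3 CPM with Sox11, and 29.3 and 40.2 CPM with Sox11 K91A. Its log2 fold changes were -1.89 (adjusted p = 0.017) and -1.59 (adjusted p = 0.034). Hap1, whose protein takes part in the transport of BDNF vesicles, had log2 fold changes of -1.73 (adjusted p = 0.012) and -1.54 (adjusted p = 0.02). Furin, the protease that cuts proneurotrophins in the Golgi, had log2 fold changes of 0.17 (adjusted p = 0.53) and 0.15 (adjusted p = 0.62), and is named here after its values were seen.

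Of 24 partners and effectors of p75, 5 rose and 4 fell with Sox11. Those that rose include Traf6, an adaptor of p75, at 11.8 and 8.25 CPM in the controls, 25.5 and 30.8 CPM with Sox11, and 25.6 and 21.7 CPM with Sox11 K91A. Traf6 passed in both comparisons, with log2 fold changes of 1.54 (adjusted p = 0.013) and 1.28 (adjusted p = 0.026), as did Mapk8, the gene of the kinase JNK1, with 0.82 (adjusted p = 0.015) and 0.71 (adjusted p = 0.028). Adam10, a protease that sheds membrane proteins, and Tnfrsf19, which can take the place of p75 beside the Nogo receptor, rose with Sox11 by 1.17 (adjusted p = 0.019) and 1.54 (adjusted p = 0.044) on the log2 scale. Psen2, part of gamma-secretase, changed by -1.52 (adjusted p = 0.022) with Sox11, Arhgdia by -0.75 (adjusted p = 0.024), Rtn4r, the Nogo receptor, by -0.98 (adjusted p = 0.027), and Bex1 by -0.72 (adjusted p = 0.028). With Sox11 K91A, 2 of the 24 rose and none fell.

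Of 31 Trk adaptors, 4 rose and 3 fell with Sox11, and 4 rose and 2 fell with Sox11 K91A. Magi2, which encodes a synaptic scaffold, had 33.6 and 20.6 CPM in the controls, 85.1 and 105 CPM with Sox11, and 103 and 78.5 CPM with Sox11 K91A, with log2 fold changes of 1.87 (adjusted p = 0.012) and 1.80 (adjusted p = 0.019). Nedd4l, a ubiquitin ligase, changed by 1.37 and 1.17, and the Trk signaling genes Gab1 by 0.91 and 0.79 and Plcg1 by 0.62 and 0.71. Ehd4, whose protein takes part in the uptake of Trk into endosomes, had 72.0 and 57.9 CPM in the controls and between 10.8 and 21.9 CPM with either virus, and Eps8 had 59.2 and 52.1 CPM against 20.0 to 21.3 CPM. Both fell in both comparisons. Among 32 effector kinases and related genes, Creb1 and Pik3ca rose and Hras and Map2k1 fell with Sox11, and Hras fell with Sox11 K91A.

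Of 19 tested genes known to be induced by BDNF, 2 rose and 3 fell with Sox11, and none rose and 3 fell with Sox11 K91A. Arc, an immediate early gene of the synapse, had 14.6 and 21.2 CPM in the controls, 4.04 and 3.80 CPM with Sox11, and 2.82 and 3.53 CPM with Sox11 K91A. Vgf, the gene of a secreted neuropeptide precursor, had 3154 and 2841 CPM in the controls, 1128 and 759 CPM with Sox11, and 896 and 1265 CPM with Sox11 K91A. Arc changed by -2.19 (adjusted p = 0.012) and -2.50 (adjusted p = 0.015) on the log2 scale and Vgf by -1.69 (adjusted p = 0.013) and -1.49 (adjusted p = 0.023), and Spry2, which encodes an inhibitor of receptor tyrosine kinase signaling, fell in both comparisons. Its relative Spry1 (log2 fold change 1.39, adjusted p = 0.046) and the phosphatase gene Dusp6 (0.80, adjusted p = 0.024) rose with Sox11. With Sox11 the list thus held genes that passed in opposite directions, and with Sox11 K91A all 3 that passed were lower. These counts are too small to be read as a direction of the list.

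**Figure D5:**
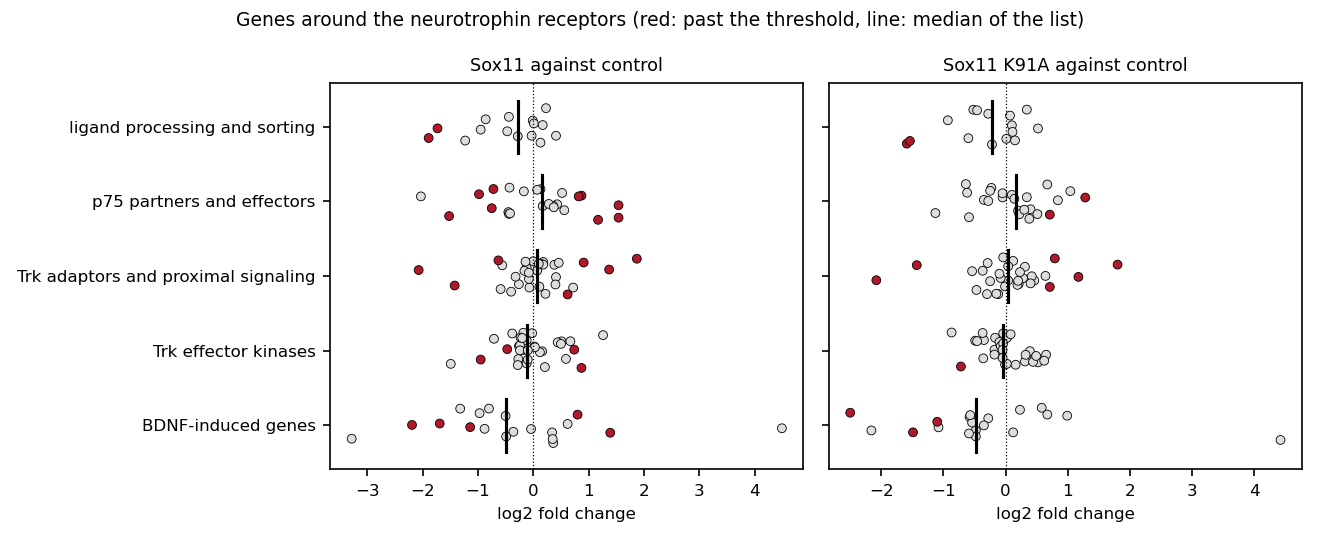
Log2 fold change of the tested genes of these 5 lists, with 1 point per gene, in Sox11 against control and Sox11 K91A against control; red points passed the test and vertical lines are the median of each list. Points that passed lie on both sides of 0 in the lists of p75 partners, Trk adaptors, effector kinases and BDNF-induced genes with Sox11.

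Libraries also differed in a way the groups do not explain. Xist, transcribed from the inactive X chromosome, had 95.9 CPM in control replicate 2 and 254 CPM in Sox11 replicate 2, and between 400 and 526 CPM in the other 4. Ddx3y, a gene of the Y chromosome, had 30 and 29.9 CPM in the same 2 libraries and between 16.2 and 17.7 CPM in the other 4. The mix of sexes in each library was not tested. Without these 2 libraries the log2 fold change with Sox11 was 2.73 (adjusted p = 0.027) for Ngfr, -1.76 (adjusted p = 0.071) for Bdnf and 0.56 (adjusted p = 0.08) for Sort1. With Sox11 K91A the values were 2.94 (adjusted p = 0.0092) for Ngfr, -2.08 (adjusted p = 0.023) for Bdnf and 0.62 (adjusted p = 0.031) for Sort1. In this fit the control and Sox11 groups held 1 library each and were assumed to vary like the Sox11 K91A group.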

How the data were processed

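RNA-seq libraries of cultured mouse RGCs were analysed (3 groups, 2 replicates each, grouped by the sample labels). The authors aligned reads to mm10 with STAR and counted them with RSEM, and they deposited 1 table per library with expected counts per gene, not normalized, TPM, gene lengths and the posterior SD of counts. Versions, annotation and strand use are not given in the sources used here.

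Expected counts were rounded. Genes were filtered with filterByExpr and scaled by TMM (factors 0.985 to 1.04) in edgeR 4.0.16, and 15747 genes were tested with limma-voom (limma 3.58.1, R 4.3.3) in a single fit of all 6 libraries without covariates. All adjusted p-values are two-sided, by Benjamini-Hochberg over all genes tested. A call needed an FDR under 0.05 and a fold change above 1.2. CPM used TMM-scaled library sizes. The fit was run on data simulated with the same spread parameter for every gene, a simpler setting than these libraries. Coordinates and exons came from GENCODE M21 (GRCm38), and upstream sequences from RefSeq (GRCm38.p6). Plots were drawn with matplotlib 3.10.9 from tables made in pandas 2.3.3 (Python 3.11.15).

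The 8 genes, the lists and the tests were chosen with earlier results of these data known. Named were all 8 genes, Sox11, up to 4 genes per direction of each list by smallest p, and the 3 nearest patterns (mean of at least 5 CPM). The results of some list and marker genes are not reported here, although they enter the counts over lists and the sums over markers. In the files Ngfr is ENSMUSG00000000120.6 (chr11:95568818-95587735), and Ntrk2 lies at chr13:58806569-59133970, Ntrk3 at chr7:78175959-78738012, Bdnf at chr2:109674700-109727007, Ntf3 at chr6:126101412-126166910, Sort1 at chr3:108284082-108361511, Nradd at chr9:110621135-110624452 and Kidins220 at chr12:24974925-25063152. Few reads were divided between these and other counted genes, since the posterior SD of the count was 0 for 7 of the 8 and at most 3.23 reads for Sort1. Gm45346 and Gm36236, which overlap exons of Bdnf and Kidins220, were not among the counted genes. Reads shared with them would therefore not show in this SD. Alternatives were edgeR's quasi-likelihood test, DESeq2 1.42.0, sample quality weights, log2(TPM + 1) and log2(TPM + 0.1) in limma, other scalings and filters, 2 groups only, the replicate number or low Xist as a block, and leaving out libraries.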

Additional observations from a re-analysis of the deposited data

How the results depend on the processing

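The directions of Ngfr, Bdnf, Sort1 and Kidins220 against control held under all 20 alternatives, but with 2 libraries a group the number of calls depended on single libraries. In fits that left an arm with 1 library, that library was assumed to vary like the other groups. Leaving out 1 library, or the pair with low Xist, gave 0 to 3 calls among the 8 genes with Sox11 (3 with all libraries) and 0 to 4 with Sox11 K91A (1 with all libraries). Over all genes these fits called 0 to 3753 with Sox11 and 0 to 4108 with Sox11 K91A, and over the signaling lists 0 to 35 and 0 to 45. Without Sox11 replicate 2 no gene was called with Sox11, and without control replicate 2 none with Sox11 K91A. The cause was not tested.

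Among the 8 genes, quality weights gave 1 call with Sox11. DESeq2, a fit of 2 groups only and low Xist as a block gave 2 each with Sox11 K91A. Smaller shifts of a count are not listed in this paragraph. Over the 20 alternatives, including those that left out libraries, Bdnf lost its call with Sox11 in 7, Sort1 in 5 and Ngfr in 1. Kidins220 gained a call with Sox11 in 2. With Sox11 K91A, Ngfr lost its call in 2. Calls were gained there for Bdnf in 5, Sort1 in 3, and Ntrk2 and Kidins220 in 1 each. Over all genes with Sox11, quality weights called 979, log2(TPM + 0.1) 2107 and 2 groups only 1598, against 3171. With Sox11 K91A, DESeq2 called 3144, log2(TPM + 1) 936, log2(TPM + 0.1) 896 and the low Xist block 2894, against 1672. Between the viruses DESeq2 called 2 genes, against 0. In the signaling lists with Sox11, DESeq2 called 47, quality weights 11, 2 groups only 15 and the low Xist block 48, against 28, and with Sox11 K91A DESeq2 called 30, log2(TPM + 0.1) 9 and the low Xist block 34, against 14.

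Whether the replicate number pairs the libraries is not given, and the correlations here cannot settle it. Control replicate 2 and Sox11 replicate 2 shared a low Xist, and Sox11 K91A replicate 2 did not. The correlation of deviations between same-numbered libraries was 0.231 for control and Sox11, -0.033 for control and Sox11 K91A, and -0.232 for the viruses. With the replicate number as a block, 3 of the 8 genes were called with Sox11 and 1 with Sox11 K91A, and 2679 and 1402 of all genes. The block changed no call among the 8 genes.

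Changes of sign fell on values that passed the test in neither fit. With Sox11, Ntrk2 was at 0.06 on log2(TPM + 1) and 0.07 on log2(TPM + 0.1), and Ntrk3 was at -0.06 in edgeR, -0.07 in DESeq2, -0.01 with quality weights or the replicate block, -0.02 with library size only and -0.03 with the low Xist block. Nradd was at 0.16 in edgeR, 0.15 in DESeq2, 0.07 and 0.06 on the 2 TPM scales, and 0.03 with the low Xist block. That block also gave -0.19 for Ntrk3 with Sox11 K91A, and -0.17 for Ntrk3 and -0.14 for Bdnf between the viruses. Leaving out libraries moved the log2 fold change with Sox11 from -0.42 to 0.34 for Ntrk2, -0.42 to 0.37 for Ntrk3 and -0.84 to 0.77 for Nradd. With Sox11 K91A the ranges were -0.42 to 0.31 for Ntrk2, -0.29 to 0.49 for Ntrk3 and -2.19 to 0.37 for Ntf3. Between the viruses they were -0.63 to 0.20 for Ngfr, -0.05 to 0.00 for Ntrk2, -0.06 to 0.30 for Ntrk3, -0.32 to 1.04 for Bdnf, -0.86 to 1.69 for Ntf3, -0.32 to 0.06 for Sort1, -0.35 to 1.23 for Nradd and -0.11 to 0.02 for Kidins220.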
